A study of Mus musculus with 4 samples.

Results

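Cycling nuclei of mouse hearts were chosen by the transcripts of 6 cell-cycle genes (Top2a, Mki67, Cenpf, Cenpe, Kif11 and Aspm), and 331 of 45483 nuclei (0.728%) met the rule. A nucleus counted as cycling when these genes together had at least 4 unique molecular identifiers (UMIs, each standing for 1 captured transcript molecule), from at least 2 of the 6. Nuclei entered with at least 300 detected genes and at most 5% of UMIs from mitochondrial genes. Single-nucleus RNA was sequenced with the 10x Genomics 3′ v3 assay from whole cardiac nuclei of C57BL/6 mice aged 6 months. There were 4 libraries, each from 3 pooled hearts: homozygous Rbm20 mutant after gene editing correction (corrected), homozygous Rbm20 mutant (Rbm20_homo), heterozygous Rbm20 mutant (Rbm20_het) and wild type (WT). The labels name neither the allele nor the editing agent, and 2 added features in the count tables, ABE_N and ABE_C, had UMIs in the corrected library and none in the other 3. Strain, age and pooling were shared by all groups, and no label ties a nucleus to 1 of its 3 hearts. With 1 library per genotype there is no test of genotype, and all intervals given here are 95% intervals that cover counting error only, not the spread between hearts.

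A dividing cell copies its DNA in S phase, loads it with new histones, condenses and segregates the chromosomes in mitosis, and separates the daughter cells in cytokinesis. Top2a encodes the topoisomerase that untangles sister DNA, Mki67 a coat protein of mitotic chromosomes, Cenpf and Cenpe proteins of the kinetochore, Kif11 the kinesin that pushes spindle poles apart, and Aspm a protein of the spindle poles. In the adult mouse heart, fibroblasts, endothelial cells and resident macrophages can divide, whereas most cardiomyocytes have left the cycle and a part of them copies DNA without dividing. Rbm20 encodes a splicing regulator of cardiomyocytes that acts on titin and other sarcomere transcripts.

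Many genes of G2 and mitosis share 2 short promoter motifs, TTTGAA, known as the cell-cycle homology region, and CCAAT, the box bound by the factor NF-Y. The 250 bases before the RefSeq start of 3 of the rule's genes are shown because these genes hold both motifs before the start site. Capitals mark either motif on either strand (TTCAAA and ATTGG are the reverse complements), the sequences run 5′ to 3′ on the gene's strand, and the build is GRCm38.p6. The Top2a stretch is chr11:99024190-99024439 on the minus strand, the Mki67 stretch chr7:135716380-135716629 on the minus strand, and the Kif11 stretch chr19:37376132-37376381 on the plus strand.
Top2a: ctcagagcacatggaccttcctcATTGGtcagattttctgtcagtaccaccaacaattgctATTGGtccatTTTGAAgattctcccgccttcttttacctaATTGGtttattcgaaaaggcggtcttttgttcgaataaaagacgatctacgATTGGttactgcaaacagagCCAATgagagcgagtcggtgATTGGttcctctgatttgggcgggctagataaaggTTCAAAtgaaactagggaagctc
Mki67: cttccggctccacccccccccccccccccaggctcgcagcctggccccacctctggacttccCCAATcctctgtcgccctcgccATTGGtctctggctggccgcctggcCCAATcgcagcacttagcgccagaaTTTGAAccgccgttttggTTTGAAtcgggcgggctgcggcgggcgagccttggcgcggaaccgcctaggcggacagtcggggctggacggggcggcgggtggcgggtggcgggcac
Kif11: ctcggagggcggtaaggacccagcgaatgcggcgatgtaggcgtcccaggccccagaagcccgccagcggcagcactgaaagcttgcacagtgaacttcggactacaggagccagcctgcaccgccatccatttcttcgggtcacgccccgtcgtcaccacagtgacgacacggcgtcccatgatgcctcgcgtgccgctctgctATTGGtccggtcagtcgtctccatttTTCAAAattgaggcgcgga

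In these promoters, taken as 250 bases before and 50 after the start, TTTGAA was found in 5 of the 6 rule genes, Cenpe being the exception, and CCAAT in 6 of 6. Among the first promoters of all 27025 genes, 18.1% held TTTGAA, 37.9% held CCAAT and 7.12% held both. Of 68 promoters matched to the genes of the mitosis lists described later, 58.8% held TTTGAA, 64.7% held CCAAT and 44.1% held both. The promoters of the 37 matched DNA replication genes held TTTGAA in 16.2%, CCAAT in 56.8% and both in 10.8%. In Top2a the TTTGAA match nearest the start lay 23 bases before it, in Kif11 19 bases, and in Mki67 98 bases.

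The libraries held 51422458 UMIs in 15153 barcodes (corrected), 52370368 in 11611 (Rbm20_homo), 42375104 in 9734 (Rbm20_het) and 37180791 in 9494 (WT). After the filters, 14957, 11512, 9620 and 9394 nuclei were left in the same libraries, with a median of 2554 UMIs per nucleus in the corrected library, 3387 in Rbm20_homo, 3212 in Rbm20_het and 3018.5 in WT. Between 26 and 56 barcodes occurred in both libraries of a pair; 3 cycling nuclei had a barcode seen in another library, and 0 of these was cycling in both.

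The 6 genes of the rule separated a small group from a large background. In the 331 cycling nuclei, Top2a was detected in 83.1% of nuclei, Mki67 in 82.2%, Cenpf in 73.4%, Kif11 in 68.0%, Cenpe in 67.4% and Aspm in 51.7%. Among the other nuclei, detection lay between 0.348% for Aspm and 1.61% for Cenpf, and from 93.1% to 97.1% of the nuclei of a library had no UMI of any of the 6. The median cycling nucleus had 11 UMIs of the rule's genes; 186 of 331 had at least 10, 222 had UMIs from at least 4 of the genes, and 85 from all 6. At the threshold, 31 members had exactly 4 UMIs. Just outside it, 56 nuclei had 3 UMIs from at least 2 genes, and 28 had at least 4 UMIs from 1 gene alone, which was Cenpf in 21 of them. These genes defined the members, so their levels describe the choice and are no result.

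Summed over cycling nuclei, Top2a reached 277 UMIs per 1000000 non-mitochondrial UMIs (CPM) in the corrected library, 600 in Rbm20_homo, 581 in Rbm20_het and 593 in WT. In the other nuclei the same libraries had 1.07, 3.77, 1.35 and 2.37 CPM. Mki67 had 227 CPM in cycling nuclei of the corrected library, 367 in Rbm20_homo, 337 in Rbm20_het and 464 in WT. Cenpf had 311, 388, 371 and 476 CPM in the cycling nuclei of the corrected, Rbm20_homo, Rbm20_het and WT libraries. The corrected library was the lowest for Top2a, Mki67, Cenpf, Cenpe and Kif11, and Rbm20_het was the lowest for Aspm. In the corrected library, 1 nucleus with 137569 UMIs held 42.5% of all UMIs of the cycling nuclei. Without the cycling nuclei over 20000 UMIs (1, 6, 4 and 4 in the corrected, Rbm20_homo, Rbm20_het and WT libraries), Top2a had 480 CPM in the corrected library, 732 in Rbm20_homo, 851 in Rbm20_het and 798 in WT. The corrected library was then still the lowest for Top2a, Mki67, Cenpe and Kif11, with Cenpe at 302 CPM beside 304 CPM in Rbm20_het. Cenpf was then lowest in Rbm20_homo, with 457 CPM there and 507 CPM in the corrected library. Aspm then had 291, 194, 243 and 266 CPM in the corrected, Rbm20_homo, Rbm20_het and WT libraries, so that the corrected library was the highest. The nucleus with the most UMIs of these genes was in WT, with 80, among them 29 of Cenpf and 19 of Mki67; the highest in Rbm20_het had 66, in Rbm20_homo 48 and in the corrected library 31.

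**Figure D1:**
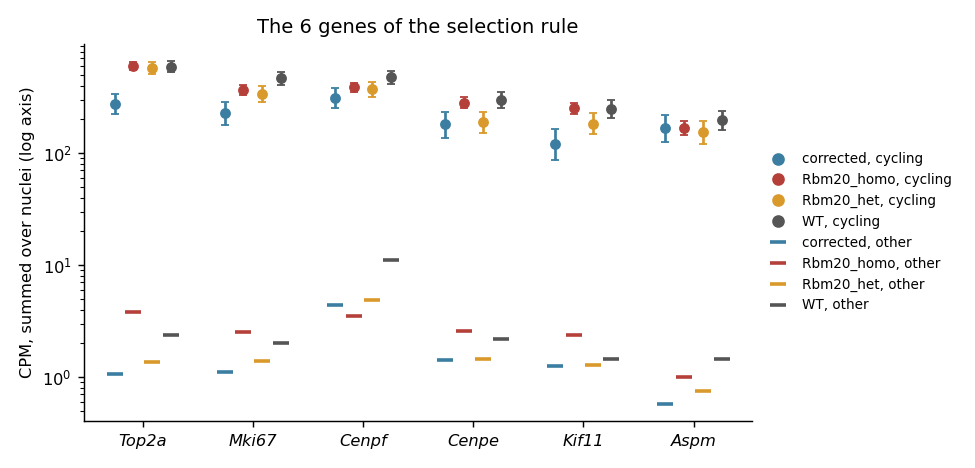
Summed CPM (log axis) of the 6 genes used to choose the nuclei, in cycling nuclei (points, with exact Poisson 95% intervals) and in the other nuclei (dashes) of each library. Every point lies above 100 CPM and every dash below 12 CPM, a gap that the selection itself fixes.

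Cycling nuclei made up 0.241% of nuclei in the corrected library (36 of 14957, exact Clopper-Pearson interval 0.169% to 0.333%). In Rbm20_homo the share was 1.49% (171 of 11512, interval 1.27% to 1.72%). It was 0.468% in Rbm20_het (45 of 9620, interval 0.341% to 0.625%) and 0.841% in WT (79 of 9394, interval 0.666% to 1.05%). No 2 of these 4 intervals overlapped, and the order of the shares, lowest first, was corrected, Rbm20_het, WT, Rbm20_homo. The Rbm20_homo share was 1.77-fold that of WT, a log2 ratio of 0.82 (interval 0.44 to 1.20). In Rbm20_het it was 0.556 of the WT share, a log2 ratio of -0.85 (interval -1.37 to -0.32). The corrected library had 0.162 of the Rbm20_homo share (log2 ratio -2.63, interval -3.14 to -2.11) and 0.286 of the WT share (log2 ratio -1.80, interval -2.37 to -1.24). Heart-to-heart variation and library cannot be told apart from genotype in these ratios, and those over WT share the WT library.

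Depth moved with membership. The median cycling nucleus had 4439.5 UMIs in the corrected library, 4772 in Rbm20_homo, 6029 in Rbm20_het and 4749 in WT, against 2550, 3369, 3204 and 3008 in the other nuclei of the same libraries. After each nucleus was thinned to 2000 UMIs, with the rule set at 2 UMIs from 2 genes, cycling nuclei made up 0.335% in the corrected library, 1.52% in Rbm20_homo, 0.478% in Rbm20_het and 1.05% in WT. The same nuclei before thinning, by the main rule given at the start, gave 0.345%, 1.76%, 0.574% and 0.996%. Both depth and rule differ between these shares and the thinned ones, so comparing them cannot isolate the effect of depth. Of the cycling nuclei after thinning, 28 of 33 in the corrected library and 127 of 138 in Rbm20_homo also met the main rule. So did 31 of 35 in Rbm20_het and 55 of 73 in WT. Thinning left out 5091, 2425, 2298 and 2468 shallower nuclei of the corrected, Rbm20_homo, Rbm20_het and WT libraries, which held 2, 11, 3 and 10 cycling nuclei.

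**Figure D2:**
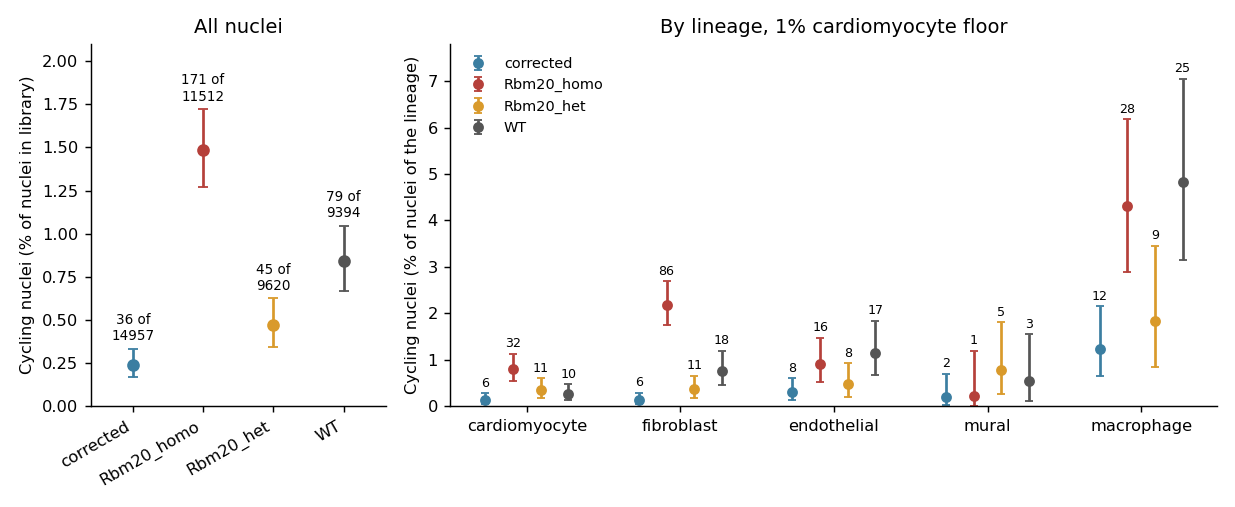
Share of cycling nuclei among all nuclei (left) and among the nuclei of each lineage (right), in %, for each library; points are shares, bars exact Clopper-Pearson 95% intervals, and the numbers are cycling nuclei. Rbm20_homo is highest overall and among cardiomyocyte and fibroblast nuclei, while its macrophage share of 4.31% lies beside 4.84% in WT.

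The lineage of each cycling nucleus was taken as the largest UMI sum among 5 marker sets: Ttn, Ryr2 and Myh6 for cardiomyocytes; Pdgfra, Dcn, Col1a2 and Abca8a for fibroblasts; Flt1, Ptprb and Cyyr1 for endothelial cells; Rgs5 and Pdgfrb for mural cells; Mrc1, F13a1 and Csf1r for macrophages. By this rule 143 of 331 cycling nuclei (43.2%) were cardiomyocyte, 95 (28.7%) fibroblast, 53 (16%) macrophage, 24 (7.25%) endothelial and 6 (1.81%) mural, and 10 were tied. The cardiomyocyte set did not separate the nuclei cleanly, because its transcripts were found at a low share in nearly all nuclei. Its share of a nucleus' UMIs had 2 groups of values in every library, above and below about 1%, and most cycling nuclei lay in the lower one. After the data had been seen, a floor was therefore added: cardiomyocyte only where Ttn, Ryr2 and Myh6 had the largest sum and held at least 1% of the UMIs, and otherwise the largest of the other 4 sets with at least 3 UMIs. Of the 143 nuclei called cardiomyocyte by the largest sum, 59 reached the floor.

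**Figure D3:**
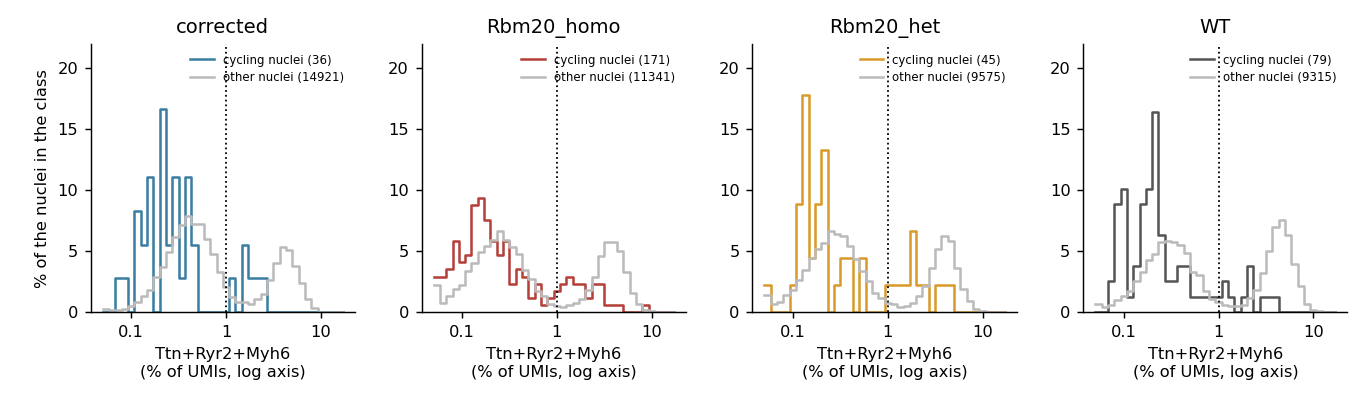
Share of each nucleus' UMIs from Ttn, Ryr2 and Myh6 (%, log axis) in cycling nuclei (coloured) and other nuclei (grey) of each library, as % of the nuclei in the class; the dotted line is the 1% floor. Other nuclei form 2 groups on either side of the floor, and cycling nuclei lie mostly below it.

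With the floor, 121 cycling nuclei (36.6%) were fibroblast, 74 (22.4%) macrophage, 59 (17.8%) cardiomyocyte, 49 (14.8%) endothelial and 11 mural, and 17 were unassigned. Marker lists that the rule did not use were detected in the cycling nuclei of their own class, each at a lower level than in the other nuclei of that class. Macrophage markers in cycling fibroblasts are given with the fibroblast results below. The 8 fibroblast markers, among them Col3a1 and Lama2, had 5336 CPM in cycling fibroblasts and 6902 CPM in the other fibroblasts. The 8 endothelial markers, among them Pecam1 and Cdh5, had 5042 CPM in cycling endothelial nuclei against 7117 CPM in the other endothelial nuclei, and the 8 macrophage markers 2545 CPM in cycling against 3220 CPM in other macrophages. The 8 pericyte markers had 10325 CPM in the 11 cycling mural nuclei and 17457 CPM in other mural nuclei. In cycling cardiomyocytes the 8 cardiomyocyte markers, among them Tnnt2 and Actn2, had 10715 CPM, against 19424 CPM in other cardiomyocytes. Those lists that belong to other types were higher in cycling cardiomyocytes than in other cardiomyocytes: fibroblast markers 3209 against 2138 CPM, endothelial markers 1477 against 498 CPM, and macrophage markers 440 against 109 CPM. The part of such mixed transcripts in the cardiomyocyte results was not tested.

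Cycling fibroblasts were most numerous in Rbm20_homo. There were 6 in the corrected library (0.134% of its fibroblasts), 86 in Rbm20_homo (2.18%), 11 in Rbm20_het (0.366%) and 18 in WT (0.754%). Rbm20_homo over WT gave a log2 ratio of 1.53 (interval 0.81 to 2.26), and corrected over Rbm20_homo one of -4.03 (interval -5.22 to -2.83). With the largest-sum lineage the same ratios were 1.66 and -3.55. Rbm20_het over WT gave -1.04, with an interval of -2.12 to 0.04 that spans 0.

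Cycling cardiomyocytes numbered 6 in the corrected library (0.125%), 32 in Rbm20_homo (0.801%), 11 in Rbm20_het (0.337%) and 10 in WT (0.256%). Rbm20_homo over WT gave a log2 ratio of 1.65 (interval 0.63 to 2.67), and corrected over Rbm20_homo one of -2.68 (interval -3.93 to -1.42). With the largest-sum lineage the same ratios were 0.96 (interval 0.38 to 1.53) and -3.07 (interval -3.89 to -2.25). Rbm20_het over WT changed sign with the lineage rule, at 0.40 with the floor (interval -0.84 to 1.63) and -0.63 by the largest sum (interval -1.42 to 0.15), and both intervals span 0. Counting only cardiomyocyte nuclei in which the other 4 sets held less than 10% of the UMIs of the 5 sets left 2 cycling nuclei in the corrected library, 22 in Rbm20_homo, 5 in Rbm20_het and 6 in WT. Their shares were 0.0495%, 0.608%, 0.170% and 0.167% in those libraries, and Rbm20_homo over WT was then 1.86 (interval 0.56 to 3.16). The highest Scrublet doublet scores were found in 66.7% of the cycling cardiomyocytes of the corrected library, 40.6% in Rbm20_homo, 54.5% in Rbm20_het and 30% in WT. Among the other cardiomyocytes of these libraries the proportions were 21.7%, 19.5%, 17.7% and 14.8%. Without the high-scoring nuclei, 2, 19, 5 and 7 cycling cardiomyocytes were left in the corrected, Rbm20_homo, Rbm20_het and WT libraries, and Rbm20_homo over WT was 1.49 (interval 0.25 to 2.74). The nucleus with 137569 UMIs, the most of any cycling nucleus, was a cardiomyocyte of the corrected library and held 72.9% of the UMIs of its 6 cycling cardiomyocytes.

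Among the 5 lineages, macrophages held the highest share of cycling nuclei in each library. It was 1.24% in the corrected library (12 nuclei), 4.31% in Rbm20_homo (28), 1.83% in Rbm20_het (9) and 4.84% in WT (25). Rbm20_homo over WT gave a log2 ratio of -0.16 with an interval that spans 0 (-0.92 to 0.60), so no difference was detectable at these numbers. Corrected over WT gave -1.97 (interval -2.95 to -0.99) and Rbm20_het over WT -1.40 (interval -2.48 to -0.31). Cycling endothelial nuclei numbered 8 (0.303%) in the corrected library, 16 (0.910%) in Rbm20_homo, 8 (0.470%) in Rbm20_het and 17 (1.15%) in WT, with a log2 ratio of -0.34 for Rbm20_homo over WT (interval -1.32 to 0.64). Cycling mural nuclei numbered 2, 1, 5 and 3 in the corrected, Rbm20_homo, Rbm20_het and WT libraries, too few for a comparison.

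Genes that the rule did not use were then compared between cycling nuclei and the other nuclei of the same library and lineage, scaled to the members' UMI total. Because the members were chosen on correlated genes of the same nuclei, the values describe the group and are not tested. Of 10176 genes with at least 30 UMIs observed or expected, 663 (6.52%) were at least 2-fold higher in cycling nuclei and 242 (2.38%) were at 0.5 of the matched level or lower. Without the WT library the lower count was 123 of 9277 genes. The median gene stood at 1.13 of the matched level (log2 0.18), and fold values are read against that. Matching on the lineage with the floor gave 515 higher genes (5.06%) and 57 lower genes (0.56%) of 10180, with a median gene at 1.06 of the matched level.

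Troap, Cdc25c and Esco2 headed the genes that were higher in cycling nuclei. Troap, which encodes a protein of the mitotic spindle (chr15:99074575-99083409 in GRCm38), had 179 UMIs in cycling nuclei against 0.529 expected from matched nuclei. Its ratio was 338-fold (interval 291 to 392, for the counting error of the cycling nuclei), with 19 UMIs in the corrected library, 93 in Rbm20_homo, 23 in Rbm20_het and 44 in WT. Cdc25c, the phosphatase that activates the mitotic kinase Cdk1, stood at 285-fold with 131 UMIs, and Esco2, which acetylates cohesin in S phase, at 254-fold with 329 UMIs. Kif2c, a kinesin that takes microtubules apart, stood at 253-fold, Iqgap3 at 242-fold, Nek2, a kinase of the centrosome, at 231-fold, Kif18b at 231-fold, Nuf2 of the kinetochore at 214-fold and Cep55, which acts in the final cut between daughter cells, at 210-fold. The other 11 of the 20 highest were Hmmr, Ankle1, Neil3, Depdc1a, Sapcd2, Ckap2l, Depdc1b, Ska1, Mxd3, Knl1 and Ckap2, at 122-fold to 209-fold. Knl1, the kinetochore scaffold, was detected in 249 of 331 cycling nuclei, with 61 UMIs in the corrected library, 440 in Rbm20_homo, 133 in Rbm20_het and 179 in WT. With the floor lineage, 19 of these 20 genes were again among the 20 highest.

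The lowest genes depended on how the lineage was matched. By the largest sum, Tnnt2, cardiac troponin T, had 2651 UMIs in cycling nuclei against 6721 expected (0.394), the long noncoding RNA Mhrt 775 against 2324 (0.333) and Myh7, the slow myosin heavy chain, 95 against 310 (0.307). With the floor these ratios were 0.501 for Tnnt2, 0.432 for Mhrt and 0.401 for Myh7. Of the 18 sarcomere genes summed here, 6 were at 0.5 or below by the largest sum and 0 with the floor. Fhl2, Rnf207, Asb14, Doc2g, Tmem82, Ucp3 and Myadml2os completed the 10 lowest by the largest sum, at 0.200 to 0.436. With the floor, 8 of these 10 were again among the lowest, and C7 (0.435), a complement gene of fibroblasts, and Myh11 (0.342), smooth muscle myosin, took the other places.

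Lists of cell-cycle genes were summed over cycling nuclei and set against the matched sums. All 47 DNA replication genes stood above their expected count, and their sum was 4.07-fold (interval 3.95 to 4.20). Of the 37 with enough UMIs, 34 were at least 2-fold higher, among them Ticrr at 47.6-fold, which starts replication origins, Rrm2 at 26.8-fold, a subunit of ribonucleotide reductase, Clspn at 25.3-fold and Uhrf1 at 23.1-fold. The sum of the 24 DNA repair genes was 5.78-fold, with 19 of 21 tested genes at least 2-fold higher, led by Rad51ap1 at 45.8-fold, Brca1 at 38.8-fold and Exo1 at 35.6-fold. Histone and chromatin genes summed to 3.70-fold, with 14 of 16 tested at least 2-fold higher, such as Hist1h1b, a linker histone, at 25.2-fold and Lmnb1, lamin B1, at 16.6-fold. Among the transcription factors of the cycle, Foxm1 stood at 68.8-fold and E2f2, E2f8 and E2f7 at 29.5-fold, 25-fold and 22.3-fold, while the list's sum was 1.68-fold and 8 of 12 tested genes were at least 2-fold higher.

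Of the 6 lists of genes that act in mitosis, 4 had sums above that of replication, and condensin and cohesin and mitotic exit had lower ones. The order differed by the median of the tested genes, which was 3.78-fold for replication and higher in all 6 lists. It was 6.18-fold for condensin and cohesin, 6.65-fold for mitotic exit, 17.8-fold for centromere and kinetochore and 30.2-fold for cyclins and kinases. Spindle and kinesin genes had a median of 64.0-fold and cytokinesis genes one of 63.0-fold. Cyclins and cell-cycle kinases summed to 9.78-fold, with 21 of 23 tested genes at least 2-fold higher, including the checkpoint kinase Bub1 at 123-fold (146 UMIs against 1.18 expected) and Melk at 116-fold. Centromere and kinetochore genes summed to 8.36-fold (29 of 31 tested), and 1 gene of that list, Cenpb, had 0 UMIs. Spindle and kinesin genes summed to 8.98-fold (28 of 29 tested). Cytokinesis genes summed to 50-fold (19 of 19 tested), with Prc1, which bundles the midzone microtubules, at 840 UMIs against 8.30 expected (101-fold). Condensin and cohesin genes summed to 2.77-fold (13 of 18 tested), where Sgo1, the protector of centromeric cohesin, stood at 84.2-fold and Ncapg of condensin at 82.4-fold. Genes of mitotic exit and its ubiquitin ligase summed to 2.62-fold (9 of 12 tested), with Ube2c at 99.9-fold and Cdc20 at 75-fold.

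Within lineages, cytokinesis genes summed to 51.2-fold in cycling cardiomyocytes, 54.7-fold in fibroblasts, 26.4-fold in endothelial nuclei and 26.4-fold in macrophages. In the same order the cycling nuclei had 1455, 3553, 2690 and 3892 CPM of these genes, so that cardiomyocytes had the lowest level. The matched other nuclei had 28.4, 65.0, 102 and 147 CPM. The share of all tested genes that were at least 2-fold higher was 17.4% in cycling cardiomyocytes, 6.99% in fibroblasts, 5.23% in endothelial nuclei and 5.41% in macrophages. The median gene stood at 1.22 of the matched level in cardiomyocytes, 1.05 in fibroblasts, 1.004 in endothelial nuclei and 1.003 in macrophages. The mixed transcripts and doublet scores given earlier for cycling cardiomyocytes apply to these values too. Cycling cardiomyocytes over 20000 UMIs numbered 1, 3, 4 and 1 in the corrected, Rbm20_homo, Rbm20_het and WT libraries. In the same order, the deepest nucleus alone held 72.9%, 19.8%, 28.8% and 27.25% of the UMIs of the cycling cardiomyocytes. The pooled fold values and gene shares count nuclei by their UMIs and were not run without these deep nuclei. Replication genes summed to 2.98-fold in cardiomyocytes, 3.65-fold in fibroblasts, 4.21-fold in endothelial nuclei and 3.87-fold in macrophages. Prc1 stood at 63.6-fold in cardiomyocytes, 116-fold in fibroblasts, 85.3-fold in endothelial nuclei and 80.4-fold in macrophages. Levels per library also differed: in cycling cardiomyocytes, cytokinesis genes had 267 CPM in the corrected library, 2251 in Rbm20_homo, 995 in Rbm20_het and 1777 in WT, against 25.2, 33.6, 23.0 and 28.3 CPM in other cardiomyocytes. Without the nuclei over 20000 UMIs the cycling cardiomyocytes had 884, 3512, 1573 and 2442 CPM of these genes in the corrected, Rbm20_homo, Rbm20_het and WT libraries.

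**Figure D4:**
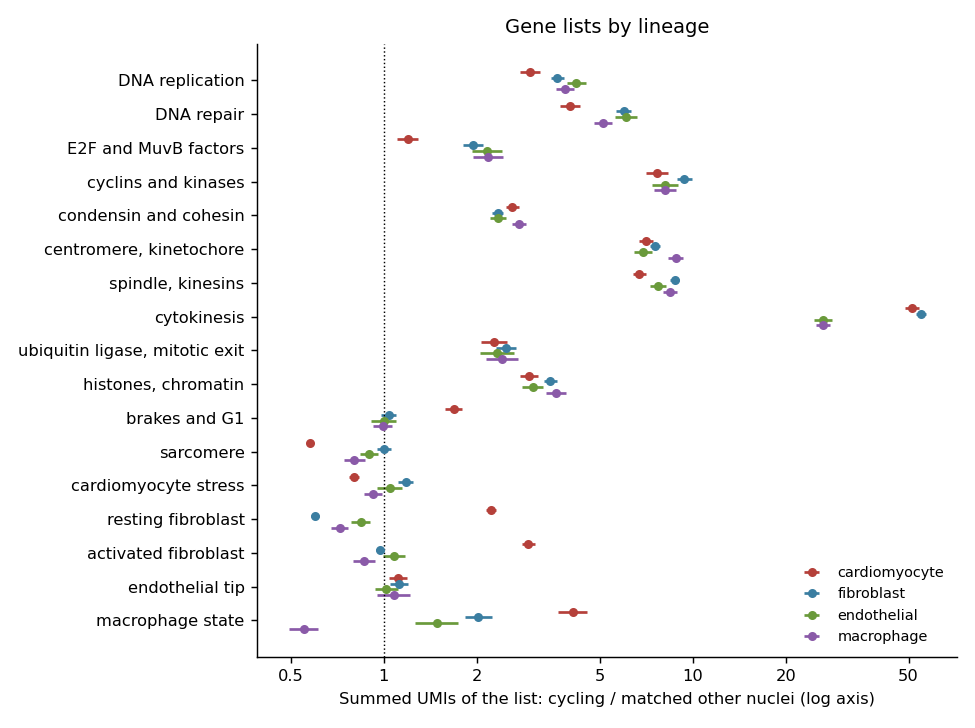
Summed UMIs of each gene list in cycling nuclei divided by the matched other nuclei of the same library and lineage (log axis), by lineage with the 1% floor; bars are 95% counting intervals. The cell-cycle lists from replication to histones lie above 1 in all 4 lineages, cytokinesis highest, and the sarcomere list lies below 1 in cardiomyocytes.

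To describe the stage of the cycle, UMIs of 80 mitosis genes were divided by those of the 47 replication genes. The mitosis genes here were those of the centromere and kinetochore, spindle and kinesin, and cytokinesis lists only. The ratio was 4.61 in the corrected library, 5.71 in Rbm20_homo, 5.72 in Rbm20_het and 4.38 in WT, and 13 of 331 cycling nuclei had more replication than mitosis UMIs. By lineage it was 6.20 in cardiomyocytes, 5.76 in fibroblasts, 4.51 in macrophages and 3.57 in endothelial nuclei. The lists also differ in size and in their level outside the cycling nuclei, so the ratio does not start from 1. From matched other nuclei, replication genes were expected at 414 CPM, and the centromere, spindle and cytokinesis lists at 346, 359 and 56.0 CPM. The 6 genes of the rule act mostly in G2 and mitosis, so that a shortage of S-phase nuclei in the hearts and one made by the rule cannot be told apart.

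Genes that restrain the cycle or act in G1 were less uniform. Their sum was 1.3-fold, with 7 of 21 tested genes at least 2-fold higher and 0 at or below 0.5. Cdkn3, a phosphatase that acts on cyclin-dependent kinases, stood at 45.0-fold (134 UMIs), Cdkn2a, which encodes an inhibitor of Cdk4 and a regulator of p53, at 13.1-fold (32 UMIs), Cdkn2c at 9.30-fold and Rbl1, a relative of the retinoblastoma protein, at 8.72-fold. With the floor lineage the sum was 1.69-fold in cardiomyocytes, 1.04-fold in fibroblasts, 1-fold in endothelial nuclei and 0.992-fold in macrophages. The median gene of cycling cardiomyocytes stood at 1.22 of the matched level, and their deep nuclei, given earlier, count in both values. Immediate early genes, which mark a recent stimulus or tissue handling, summed to 1.21-fold and 0 of 6 tested genes were 2-fold higher.

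Cycling fibroblasts had less of the resting fibroblast program. The 19 resting genes other than Dcn summed to 0.599 of the matched fibroblast level (interval 0.581 to 0.618), 0 of 19 stood above it, and 2 of 17 tested genes were at 0.5 or below, against 0.861% of all genes tested there. The list had 4270 CPM in the 6 cycling fibroblasts of the corrected library, 5331 in Rbm20_homo, 6157 in Rbm20_het and 5148 in WT. Other fibroblasts had 7155, 9148, 8992 and 8475 CPM in those libraries, so that cycling fibroblasts were lower in each of the 4. C7 had 147 CPM in cycling fibroblasts of Rbm20_homo against 651 CPM in its other fibroblasts.

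Activation genes of fibroblasts did not follow membership in the same way. Their sum was 0.972 of the matched level (interval 0.943 to 1), with 12 of 26 genes above it. By library they had 2989 CPM in cycling fibroblasts of the corrected library, 6857 in Rbm20_homo, 3041 in Rbm20_het and 2804 in WT. The other fibroblasts of those libraries had 3913, 6945, 3199 and 3063 CPM, so the high level of Rbm20_homo was present in cycling and other fibroblasts alike. Within Rbm20_homo, Postn, a matrix protein of activated fibroblasts, had 578 CPM in cycling against 434 CPM in other fibroblasts. Fn1, fibronectin, had 177 against 60.4 CPM there, and Col1a1 280 against 165 CPM, whereas Col8a1 had 2478 against 3138 CPM. Runx1 had 450 CPM in the 11 cycling fibroblasts of Rbm20_het and 251 CPM in the 18 of WT, against 35.8 and 39.0 CPM in their other fibroblasts. Macrophage markers, which include Adgre1 and Ptprc, moved with these nuclei: they had 964 CPM in cycling fibroblasts of Rbm20_het, 727 CPM in WT and 354 CPM in Rbm20_homo, against 217, 219 and 248 CPM in their other fibroblasts. Their part in the Runx1 level was not tested.

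**Figure D5:**
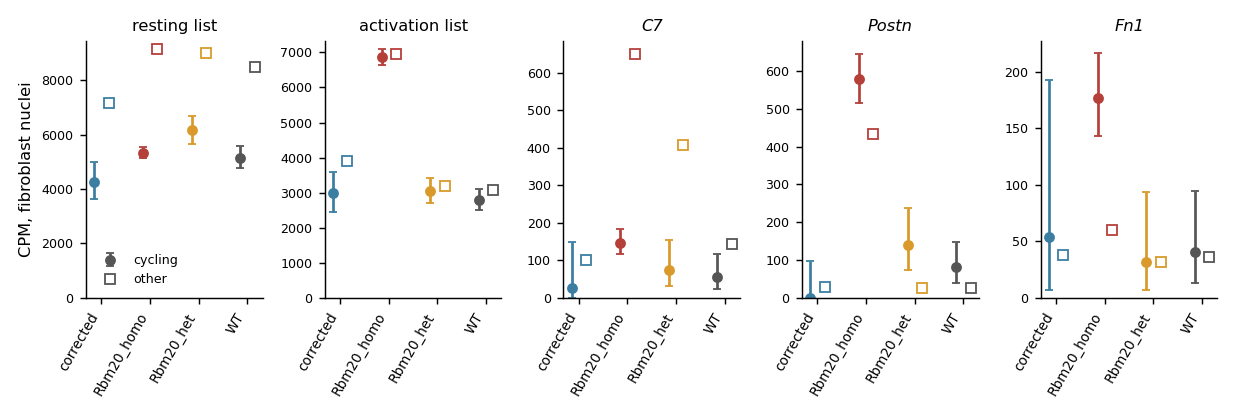
Levels (CPM) of the resting and activation lists and of C7, Postn and Fn1 in cycling (filled points, exact Poisson 95% intervals) and other fibroblast nuclei (open squares) of each library, with 6, 86, 11 and 18 cycling fibroblasts in corrected, Rbm20_homo, Rbm20_het and WT. Resting genes are lower in cycling fibroblasts of all 4 libraries, and the activation list is highest in Rbm20_homo in both classes.

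The nuclei classed as cycling cardiomyocytes had less of the sarcomere genes, but a larger share of them than of other cardiomyocytes lay near the floor. Of 6, 32, 11 and 10 in the corrected, Rbm20_homo, Rbm20_het and WT libraries, 5, 20, 9 and 7 reached the higher floor given below. Among the other cardiomyocytes there, 4306 of 4780, 3810 of 3961, 3131 of 3255 and 3754 of 3901 did. Levels above it or in the purer nuclei counted earlier are not given, so the part of borderline or mixed nuclei was not tested. The 18 listed genes other than Ttn and Myh6 summed to 0.577 of the matched cardiomyocyte level (interval 0.565 to 0.589), and 1 of 18 stood above it. They had 8933 CPM in cycling cardiomyocytes of the corrected library, 11095 in Rbm20_homo, 7813 in Rbm20_het and 10654 in WT, against 16938, 16615, 16203 and 18897 CPM in the other cardiomyocytes. Without the nuclei over 20000 UMIs the cycling cardiomyocytes had 9528, 12813, 9864 and 12019 CPM in those libraries. Tnnt2 had 1939, 1991, 2209 and 3644 CPM in the cycling cardiomyocytes of those libraries, and 5188, 4318, 5273 and 6097 CPM in the others. Without the nuclei over 20000 UMIs the cycling cardiomyocytes had 2082, 2323, 3365 and 4165 CPM of Tnnt2 in those libraries. Stress genes of cardiomyocytes summed to 0.804 of the matched level. Nppa, atrial natriuretic peptide, had 1264 CPM in cycling against 1026 CPM in other cardiomyocytes of Rbm20_homo, and Ankrd1 1843 against 2832 CPM. The resting and activated fibroblast lists summed to 2.23-fold and 2.94-fold in cycling cardiomyocytes and the macrophage list to 4.09-fold, beside the markers of other types given earlier for the same nuclei. These summed ratios include the nuclei over 20000 UMIs and were not run without them. Rbm20 itself had 1811, 2363, 1660 and 2271 CPM in cycling cardiomyocytes of the corrected, Rbm20_homo, Rbm20_het and WT libraries, against 4056, 3412, 4073 and 4130 CPM in the other cardiomyocytes. Without the nuclei over 20000 UMIs Rbm20 had 1297, 2797, 2076 and 2835 CPM in cycling cardiomyocytes of those libraries. These counts cannot show the mutation.

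In cycling macrophages, genes of macrophage state other than those used for the lineage summed to 0.552 of the matched level (interval 0.494 to 0.613), with 3 of 17 above it. The list had 697 CPM in the corrected library, 1039 in Rbm20_homo, 1209 in Rbm20_het and 959 in WT, against 1470, 1939, 1703 and 1733 CPM in their other macrophages. Cd163, a scavenger receptor of resident macrophages, had 219, 268, 181 and 388 CPM in the cycling macrophages of these libraries, against 350, 572, 543 and 592 CPM in the other macrophages. Ccr2, the chemokine receptor of monocyte-derived cells, had 0, 1, 0 and 3 UMIs in cycling macrophages of the corrected, Rbm20_homo, Rbm20_het and WT libraries. These counts are not set here against the other macrophages, so they show no difference between the classes. In cycling endothelial nuclei, the tip cell and angiogenesis list summed to 1.02-fold of the matched level, with an interval that spans 1 (0.937 to 1.11).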

How the data were processed

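The deposited tables give whole-number counts of UMIs for each barcode, which the authors had not normalized, per the file headers. The genome build named is mm10 (GRCm38), per the submitters' processing notes. These list Cell Ranger 6.1.1 and Seurat 4, but the header of each matrix gives version 4.0.0 of Cell Ranger. Intron counting and barcode filtering are not given in the sources used here. CD45+ cells appear in the protocol text, although the labels describe total nuclei. Members and gene lists were chosen with earlier results of these data known. CPM were summed over nuclei and scaled to 1000000 UMIs, mitochondrial ones left out. Expected counts come from the other nuclei of the same library and lineage at the members' UMI total, with an expected count resting on fewer than 3 UMIs set to the value for 3. Genes of the rule and of the lineage sets were left out of counts and list sums, which were also matched on the lineage with the floor. The named genes were the 20 highest and 10 lowest by the interval bound nearest to 1, and up to 4 per list with the largest log2 ratio. Shares have exact Clopper-Pearson intervals, sums exact Poisson intervals, and ratios of shares intervals on the log scale. Doublets were kept: Scrublet's own threshold marked 2991, 1, 0 and 0 nuclei in the corrected, Rbm20_homo, Rbm20_het and WT libraries, so the highest scores, at a rate that grew with the number of barcodes, were left out only as an alternative. The gene comparison was run on sums simulated with Poisson counting error only. Those sums hold no spread between nuclei, so the run cannot show how the intervals behave under it. Promoters are from RefSeq (GRCm38.p6) and gene positions from the GENCODE vM21 annotation. Python 3.11.15, numpy 2.4.6, scipy 1.17.1 and scanpy 1.11.5 were used.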

Additional observations from a re-analysis of the deposited data

Results flagged for a closer look

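The share of cycling nuclei in Rbm20_homo over WT moved in opposite directions in different lineages when the lineage was set by the largest UMI sum. It was higher in Rbm20_homo for fibroblasts and lower for endothelial nuclei, with log2 ratios 3.09 apart. Cardiomyocytes, which were higher in Rbm20_homo, stood 2.39 above endothelial nuclei on the same scale. Fibroblasts stood 1.86 above macrophages and cardiomyocytes 1.16 above macrophages. By the largest sum the endothelial ratio was -1.43 (interval -2.86 to 0.00) and the macrophage ratio -0.20 (interval -1.12 to 0.71), so the intervals reach or span 0. With the floor lineage, fibroblasts and cardiomyocytes stood closer to endothelial nuclei, with log2 ratios of 1.53 for fibroblasts, 1.65 for cardiomyocytes and -0.34 for endothelial nuclei (interval -1.32 to 0.64). With 1 library in each genotype these differences between lineages were not tested, and the endothelial ratio by the largest sum rests on 6 nuclei in Rbm20_homo and 11 in WT.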

How the results depend on the processing

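No paired analysis was possible because each genotype had 1 library of pooled hearts. The share of cycling nuclei kept its direction in all 16 alternatives run for each contrast, which changed the UMI and gene minimums, the filters, the doublets, the depth, the 6 genes in turn and the denominator. The log2 ratio ranged over 0.53 to 0.91 for Rbm20_homo over WT, -1.23 to -0.60 for Rbm20_het over WT, -2.93 to -2.14 for corrected over Rbm20_homo and -2.20 to -1.52 for corrected over WT.

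The lineage of the members depended on how it was set. With at least 5 UMIs and 60% of the sets required, cardiomyocytes held 27.2% of the members, fibroblasts 16%, endothelial nuclei 3.02%, mural nuclei 0.604% and macrophages 8.76%. With each set scaled by its mean, cardiomyocytes held 8.16%, endothelial nuclei 17.8%, mural nuclei 14.8% and macrophages 33.5%. Without the highest Scrublet scores, cardiomyocytes held 37%. The 1% floor gave cardiomyocytes 17.8%, fibroblasts 36.6%, endothelial nuclei 14.8% and macrophages 22.4%, and a 1.5% floor 12.4%, 39.0%, 15.1% and 23.6% in those lineages. Both floors, matching on them, and leaving out nuclei over 20000 UMIs were chosen after seeing the data.

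The number of genes at least 2-fold higher was 663, and 510 to 690 with 1 library left out. The number at 0.5 or lower was 242, and 123 to 299 with 1 library left out, lowest without WT. A minimum of 10 UMIs gave 1009 and no minimum above 1 gave 2795, where more genes of low count were tested. Median-of-ratios scaling, which lowers all ratios by the factor 1.11, gave 542 higher and 404 lower genes, against 663 and 242.

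List sums over all lineages kept their side of 1. Sums within a lineage were run only with the floor and by the largest sum, and some crossed 1 between these rules. In macrophages, brakes and G1 stood at 0.992 with the floor and 1.08 by the largest sum, cardiomyocyte stress at 0.924 and 1.02, and endothelial tip at 1.08 and 0.925. In fibroblasts, sarcomere stood at 1.004 and 0.831 and immediate early genes at 1.015 and 0.929. Macrophage state and fibroblast activation stood below 1 within their own lineages with the floor, as given earlier, but above 1 over all lineages. The list sums that follow are those over all lineages. Under median-of-ratios scaling they were 3.67 for replication, 5.21 for repair, 1.51 for transcription factors of the cycle, 8.82 for cyclins and kinases, 2.49 for condensin and cohesin, 7.53 for centromere and kinetochore, 8.10 for spindle, 45.1 for cytokinesis, 2.36 for mitotic exit, 3.34 for histones, 1.17 for brakes and G1, 1.16 for fibroblast activation, 0.831 for resting fibroblast, 0.730 for cardiomyocyte stress, 0.461 for sarcomere, 1.02 for endothelial tip, 1.42 for macrophage state and 1.09 for immediate early genes. Without the highest Scrublet scores the sums in the same order were 4.80, 7.10, 2.02, 11.9, 3.2, 10.3, 11.3, 59.8, 3.09 and 4.43 up to histones, then 1.18 for fibroblast activation, 0.714 for resting fibroblast, 0.906 for stress, 0.467 for sarcomere and 1.44 for macrophage state. Matching on depth moved condensin and cohesin to 2.85, spindle to 9.24, histones to 3.82, brakes and G1 to 1.35 and resting fibroblast to 0.962. Matching on the lineage with the floor gave 3.68 for replication, 5.36 for repair, 8.85 for cyclins and kinases, 2.54 for condensin and cohesin, 7.82 for centromere, 8.35 for spindle, 41.5 for cytokinesis, 2.46 for mitotic exit, 3.38 for histones, 1.16 for brakes and G1, 1.14 for fibroblast activation, 0.828 for resting fibroblast, 0.908 for stress, 0.635 for sarcomere, 1.24 for macrophage state and 1.09 for immediate early genes. The cause of these shifts was not tested. Lineages with few members, such as the 6 cycling cardiomyocytes and 6 cycling fibroblasts of the corrected library, are limited by counting error.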

Other observations

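Outside the cycling nuclei, Cenpf was detected in cardiomyocytes at levels that differed between the libraries. It had 7.19 CPM in the other cardiomyocytes of the corrected library, 1.70 in Rbm20_homo, 7.22 in Rbm20_het and 15.2 in WT. In the other fibroblasts Rbm20_homo had 6.69 CPM and the remaining libraries at most 2.91 CPM, so that Rbm20_homo was lowest in cardiomyocytes and highest in fibroblasts for Cenpf. The remaining rule genes differed from Cenpf in the other cardiomyocytes. Top2a had 0.406, 2.53, 0.449 and 1.28 CPM there in the corrected, Rbm20_homo, Rbm20_het and WT libraries. Mki67, Cenpe and Kif11 were also highest in Rbm20_homo, at 1.91, 1.41 and 2.24 CPM, whereas Aspm was highest in WT, at 1.23 CPM. Of the 28 nuclei with at least 4 UMIs from 1 rule gene, 12 were Cenpf nuclei of WT.

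B cell and T cell markers were looked for among the cycling nuclei. At least 3 UMIs of the B cell list were found in 7 cycling nuclei of the corrected library, 5 of Rbm20_homo, 0 of Rbm20_het and 11 of WT, together 6.95% of cycling nuclei against 2.18% of the others. Nearly all came from Bank1, with 36, 40, 21 and 83 UMIs in the corrected, Rbm20_homo, Rbm20_het and WT libraries, while Cd79a and Pax5 had 0 UMIs in cycling nuclei of every library. Of these 23 nuclei, 17 were in the macrophage lineage. With the floor, macrophages held 22.4% of cycling nuclei and 5.78% of all nuclei, and the shares with B cell markers were not matched on lineage. The T cell list reached 3 UMIs in 7 cycling nuclei, 2 in the corrected library and 5 in Rbm20_homo, with UMIs from at least 2 of the markers in each. The 5 marker sets hold no lymphoid class, so these nuclei were counted in other lineages. With the floor, 1 was fibroblast and 1 endothelial in the corrected library, and 3 were fibroblast and 2 cardiomyocyte in Rbm20_homo.

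Of the added features, ABE_N had 29 UMIs in 6 cycling nuclei of the corrected library and ABE_C 13 UMIs in 3, at 90.2 and 40.4 CPM, against 97.7 and 69.5 CPM in its other nuclei.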
